A study of Mus musculus with 6 samples.

Results

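The mouse Zfp genes are genes whose symbol is Zfp followed by a number only, a name used for many zinc finger protein genes. Members were all genes of that form on the platform, taken from probes with a single gene symbol, for which at least 3 of the 6 arrays had a spot that the scanner did not flag as near background. The brightest probe stood for each gene. Of 268 such genes on the platform 242 were measured, among 15012 measured genes in all, and the other 14770 measured genes served as the comparison. The 26 genes left out lay near background. Of these, 6 were above background on 2 arrays, with differences from -0.07 to 0.14, and 5 members were above background on just 3 arrays, with differences from -0.06 to 0.21.

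The study set hearts of mouse embryos in which Dicer was deleted by Cre recombinase from the Nkx2.5 locus against control hearts, 3 arrays of each, all from embryonic day 11.5. Dicer cuts precursors into mature miRNAs. Nkx2.5 is active in cardiac progenitors, so that cells of the dissected heart that do not descend from them can keep the gene. Which cells kept it was not measured here. A Cre placed in the Nkx2.5 locus can disturb that gene, and the genotype of the controls, including whether they carried Cre, is not known here, and neither is whether an array held 1 embryo or a pool. The p-values therefore measure only how these arrays spread, and that spread may be technical.

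Most Zfp genes encode C2H2 zinc finger proteins, in which a cysteine pair and a histidine pair hold a zinc ion and each finger reads a few bases of DNA. Many carry a KRAB domain, which recruits the scaffold protein Trim28 and through it histone methylation and deacetylation, and this class is known for silencing retroviral elements. The name also covers proteins of other kinds, such as RNA-binding proteins, so the genes share a naming rule rather than 1 function. KRAB zinc finger genes often lie in runs of neighbouring copies.

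Each array carried 36227 spots, of which 74.1% to 78.2% were above background. Dicer1 had log2 signals of 6.74, 6.73 and 6.68 in the mutant hearts, against 7.82, 7.63 and 7.71 in the control hearts, a fold change of 0.498 times the level in controls (95% interval 0.429 to 0.579), at limma's adjusted p = 0.036. The probe's position relative to the deleted part is not known here. All log2 signals given are quantile-normalized spot intensities after background correction, and differences are mutant minus control. The heart label was checked with 13 of 14 cardiomyocyte markers, whose summed linear signal was 188340 to 218845 in mutant hearts and 162407 to 232105 in control hearts. Measured markers were above background by the filter, so the check rests only on the size of their signals. Actc1, near the top of the scale, averaged 15.11 in mutant and 15.14 in control hearts, but Myh6 only 6.54 and 6.25. The groups did not separate the arrays as a whole. Over all measured genes the correlation of control 3 was 0.979 with mutant 1 and 0.984 with mutant 2, against 0.953 with control 1 and 0.970 with control 2, and mutant 3 correlated with the other arrays at 0.968 to 0.975. These correlations are across genes, which are not independent replicates.

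No Zfp gene changed at an adjusted p under 0.05 in limma's test over all 17727 probes, where 9 probes, or 0.0508%, passed. The smallest adjusted p of a Zfp gene was 0.211. At an unadjusted p under 0.05, 16 Zfp genes were higher and 5 lower in the mutant, or 6.61% and 2.07% of members, against 6.72% and 3.49% of other genes. In 21 Zfp genes, or 8.68%, all 3 mutant arrays lay above all 3 control arrays, against 9.72% of other genes. In 8 Zfp genes, or 3.31%, all mutant arrays lay below, against 5.51%. The share of higher members was thus near that of other genes, and the share of lower members was smaller. In whole-heart RNA, fewer cells of a type and less RNA per cell cannot be told apart.

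The Zfp genes were centred slightly above the other genes and spread less widely. Their median log2 difference was 0.06, with the middle part of the genes between -0.05 and 0.18 (quartiles), against a median of 0.01 and quartiles of -0.12 and 0.14 for other genes. Of the 242 members 150, or 62.0%, had a positive difference, against 52.3% of other genes. The 5% and 95% points of the members were -0.38 and 0.36, against -0.53 and 0.40 for other genes, so both tails were shorter. Below -0.3 lay 14 members, or 5.79%, against 10.3% of other genes, and above 0.3 lay 25 members, or 10.3%, against 9.30%. These fixed limits mix the shift of the median with the spread. In 166 members, or 68.6%, the difference was smaller than 0.2 in size. The differences of individual members ran from -1.03 for Zfp40 to 1.47 for Zfp961.

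**Figure D1:**
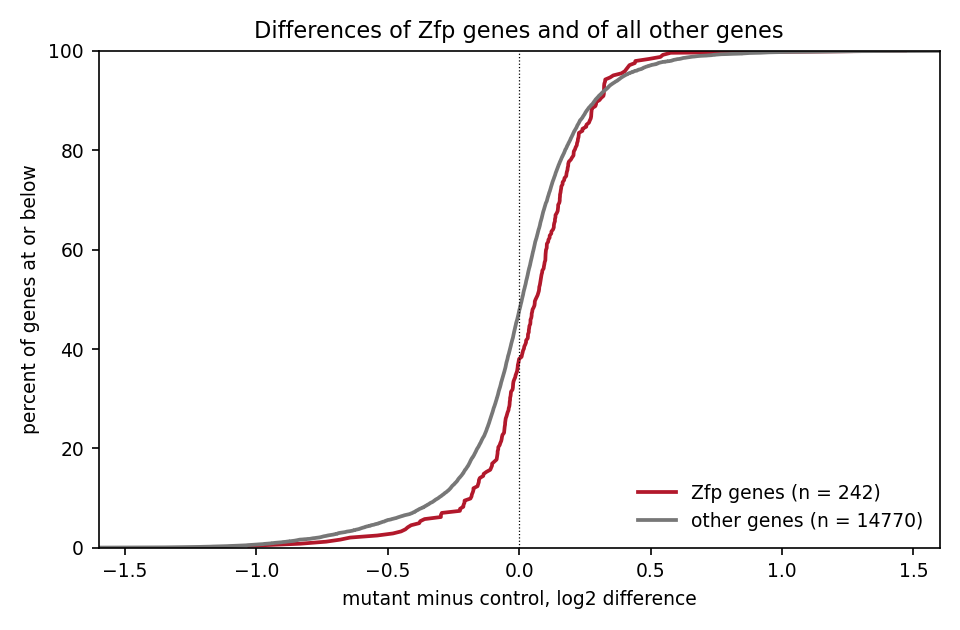
Cumulative share of genes (percent, vertical axis) by their mutant minus control log2 difference (horizontal axis) for 242 Zfp genes and 14770 other genes, with the axis ending at 1.6 on either side. The Zfp curve lies to the right of the other curve below and around 0, where the medians are 0.06 and 0.01, and the curves cross between 0.3 and 0.36.

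The shift of the Zfp genes did not separate the groups array by array. As the median deviation of members from each gene's own mean over the 6 arrays, it was 0.05, 0.04 and -0.04 in mutants 1 to 3, against -0.08, -0.06 and 0.02 in controls 1 to 3. Mutant 3 thus lay below control 3, and mutants 1 and 2 and control 3 were the arrays above 0. For other genes the same medians were -0.01, 0.02 and 0.01 in the mutants, against -0.03, -0.02 and 0.01 in the controls. The share of members above their own mean was 59.5%, 58.7% and 44.6% in mutants 1 to 3, against 34.3%, 37.8% and 55.0% in controls 1 to 3. Of 241 members with a value on every array, 56 were highest in mutant 1, 41 in mutant 2 and 51 in mutant 3, against 28 in control 1, 11 in control 2 and 54 in control 3.

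**Figure D2:**
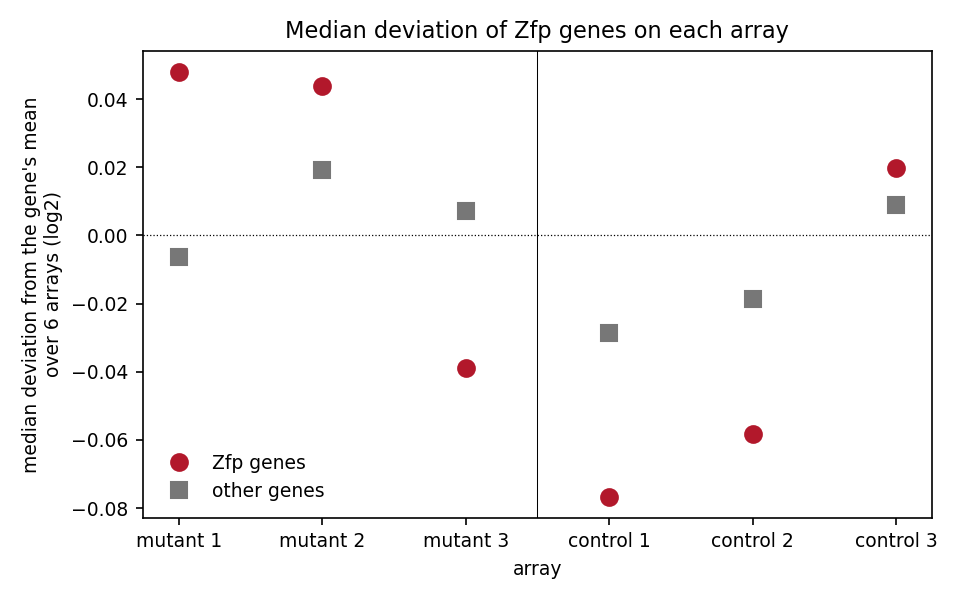
Median deviation (log2) of 242 Zfp genes and 14770 other genes from each gene's mean over the 6 arrays, for each mutant array (left) and each control array (right). The Zfp points span -0.08 to 0.05 and overlap between the groups, with control 3 at 0.02 above mutant 3 at -0.04.

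Leaving out mutant 3 and control 3, an alternative chosen after seeing the data, gave 52 passing members, 38 higher and 14 lower. That is 21.5% of members, against 22.1% of all probes tested. The members' median was then 0.11 and that of other genes 0.03. Without control 3 alone 3 members passed, 1 higher and 2 lower, or 1.24% against 1.81% of all probes. Arrays were also compared within the slide that the start of the array titles implies, where mutants 1 and 2 and control 1 share a number. The other 3 arrays each had a slide of their own, so with the slide as a block mutant 3 and controls 2 and 3 added nothing to the difference. That fit set 2 mutant arrays against control 1 alone, with 1 residual degree of freedom, and has no spread among controls. It listed 16 members under the threshold, or 6.61%, against 7.55% of all probes, and is no test of the groups. In both fits with arrays left out, the share of members passing lay under that of all probes. At an unadjusted p under 0.05 the order differed, with 39.3% of members against 36.6% of other genes without mutant 3 and control 3, and 19.8% against 21.8% without control 3.

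The dimmer members carried more of the shift. Measured genes were split at the median of their mean signal over all arrays. Of 114 dimmer Zfp genes 67.5% were above 0, with a median of 0.07, against 49.9% and 0.00 for dimmer other genes. Of 128 brighter Zfp genes 57.0% were above 0, with a median of 0.05, against 54.6% and 0.03 for brighter other genes. The part of signal level in the shift was not tested beyond this split.

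Up to 8 members per direction are named, taken by smallest p from the members without overlap between groups. The first of the higher ones were Zfp568, Zfp521 and Zfp961, and none of them passed. Zfp568, a KRAB protein known for repressing a placental transcript of Igf2, had log2 signals of 12.17, 12.10 and 11.85 in the mutant hearts, against 11.51, 11.53 and 11.60 in the control hearts. Its groups did not overlap, with mutant 3 the lowest of the mutants. The difference was 0.49 ± 0.11 (SE), or 1.41 times the level in controls (95% interval 1.17 to 1.69), at limma's adjusted p = 0.212.

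Zfp521, a regulator of progenitor differentiation in several lineages, had signals of 10.74, 10.68 and 10.58 in the mutant hearts, against 10.19, 10.35 and 10.21 in the control hearts. The mutant arrays all lay above the controls, by a difference of 0.42 ± 0.10 (SE, limma adjusted p = 0.217). Zfp961 had the largest difference of the 242 members, with signals of 9.83, 9.75 and 9.13 in the mutant hearts, against 7.54, 7.90 and 8.86 in the control hearts. Its 6 arrays did not overlap between groups, but control 3 lay close under mutant 3 and well above controls 1 and 2. The difference was 1.47 ± 0.36 (SE), or 2.77 times the level in controls (95% interval 1.52 to 5.02), at limma's adjusted p = 0.249. Without control 3 it was 1.85 with an adjusted p of 0.0448 from limma, and without control 1 it was 1.19. Among the alternative fits limma's adjusted p of Zfp961 reached 0.910.

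The other higher members named by this rule had larger p. Zfp367 gave 0.44 ± 0.15, Zfp462, a factor of neural development, 0.36 ± 0.13, and Zfp599 0.32 ± 0.09 (log2 difference ± SE). The dimmer probe of Zfp462 gave -0.05. Zfp937 gave 0.24 ± 0.09 and Zfp438 0.22 ± 0.08, with limma's adjusted p at 0.315 to 0.433 for these genes. Zfp937 was dim, averaging 6.75 in mutant and 6.51 in control hearts, and gave 0.52 with simple background subtraction. In Zfp438 both groups were tight, with 7.74, 7.68 and 7.67 in the mutant hearts, against 7.49, 7.46 and 7.48 in the control hearts. A further 13 members whose groups did not overlap were higher by 0.15 to 0.33, with unadjusted p from 0.0349 to 0.188, Zfp830 and Zfp516 among them.

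On the lower side the smallest p was that of Zfp637, with log2 signals of 10.81, 10.97 and 10.80 in the mutant hearts, against 11.26, 11.27 and 11.28 in the control hearts. The controls lay within a narrow band, and every mutant array was below it. The difference was -0.41 ± 0.09 (SE), or 0.752 times the level in controls (95% interval 0.647 to 0.873), at limma's adjusted p = 0.211. Zfp651 had 9.72, 9.87 and 9.72 in the mutant hearts, against 10.07, 10.31 and 10.29 in the control hearts, and its difference was -0.45 ± 0.11 (SE, limma adjusted p = 0.234). Zfp580 gave -0.43 ± 0.11 and Zfp286 -0.54 ± 0.19 (log2 difference ± SE), and in Zfp286 control 3, at 9.09, lay next to mutant 3, at 9.07. Without control 3 the difference of Zfp286 was -0.75, with an adjusted p of 0.0471 from limma, and without control 1 it was -0.43. Its adjusted p from limma reached 0.996 among the alternative fits.

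Zfp536, known for restraining neuronal differentiation, gave -0.23 ± 0.09, Zfp423 -0.30 ± 0.14 and Zfp474 -0.21 ± 0.11 (log2 difference ± SE). Zfp536 and Zfp474 were dim, averaging 6.31 and 6.60 in mutant hearts, against 6.54 and 6.80 in control hearts. With simple background subtraction their differences were -0.58 and -0.41. Zfp423, which acts with Ebf and Bmp factors in brain and fat development, had signals of 8.79, 8.72 and 8.48 in the mutant hearts, against 8.82, 8.88 and 9.18 in the control hearts. Zfp239 had the smallest difference of the 8 lower members, -0.08 ± 0.09, although its groups did not overlap. None of these passed, with limma's adjusted p at 0.459 to 0.771.

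**Figure D3:**
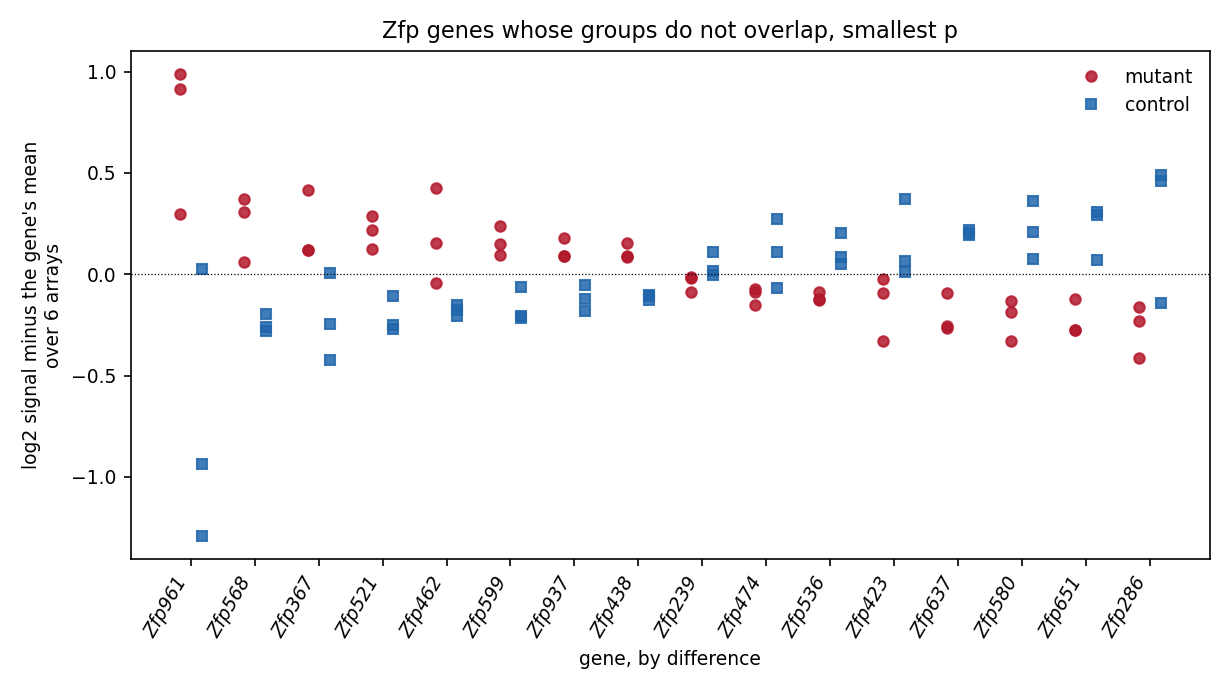
Log2 signal on each array minus the gene's mean over the 6 arrays (vertical axis) for 16 Zfp genes whose mutant arrays (circles, left) and control arrays (squares, right) do not overlap, 8 per direction by smallest p. The genes run from Zfp961, at a difference of 1.47, to Zfp286, at -0.54, and no gene passed the test over all probes.

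Promoters are shown for 1 higher and 1 lower member from those with the smallest p, Zfp961 and Zfp637, so that the letters can be compared. Zfp263 and Zfp451 are added as the members with the smallest p, among those searched whose groups did not overlap, that hold an Ets motif. Only the first listed window of a member was searched. Members without a matched window and members on 1 chromosome were passed over throughout, Zfp568 and Zfp521 among those passed over. Each is 300 bases of RefSeq sequence (GRCm38.p6), ending 50 bases after the start, 5′ to 3′ on the gene's strand. Capitals mark 6 motifs found on either strand, chosen after the shares had been seen. They are the TATA box with the letters TATAAA, the box named for its letters CCAAT and the GC box with the letters GGGCGG. The others are an Ets motif, CCGGAAG, the cAMP response element (CRE), TGACGTCA, and the E-box, CACGTG. Shorter or variant Ets matches were not searched. Overlapping matches would share capitals.
Zfp961, chr8:71950816-71951115 (plus strand): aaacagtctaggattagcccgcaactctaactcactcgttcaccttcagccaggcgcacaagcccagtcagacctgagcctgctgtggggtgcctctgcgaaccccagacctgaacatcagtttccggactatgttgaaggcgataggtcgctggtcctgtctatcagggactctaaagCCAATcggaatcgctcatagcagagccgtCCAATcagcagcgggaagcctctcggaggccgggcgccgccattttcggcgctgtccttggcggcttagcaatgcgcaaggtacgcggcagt
Zfp637, chr6:117840931-117841230 (plus strand): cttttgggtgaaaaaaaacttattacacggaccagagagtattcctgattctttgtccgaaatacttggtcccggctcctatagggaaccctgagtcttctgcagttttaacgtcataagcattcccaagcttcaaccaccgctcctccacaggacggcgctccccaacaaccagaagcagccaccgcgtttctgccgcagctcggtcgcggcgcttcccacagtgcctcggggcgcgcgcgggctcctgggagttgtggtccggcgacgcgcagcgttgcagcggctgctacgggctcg
Zfp263, chr16:3743849-3744148 (plus strand): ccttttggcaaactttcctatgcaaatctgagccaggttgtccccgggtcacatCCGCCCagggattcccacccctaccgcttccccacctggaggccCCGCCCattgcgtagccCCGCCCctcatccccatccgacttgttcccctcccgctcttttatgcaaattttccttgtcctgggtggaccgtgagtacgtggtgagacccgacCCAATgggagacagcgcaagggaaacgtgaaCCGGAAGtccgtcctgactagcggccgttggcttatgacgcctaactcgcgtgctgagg
Zfp451, chr1:33814546-33814845 (minus strand): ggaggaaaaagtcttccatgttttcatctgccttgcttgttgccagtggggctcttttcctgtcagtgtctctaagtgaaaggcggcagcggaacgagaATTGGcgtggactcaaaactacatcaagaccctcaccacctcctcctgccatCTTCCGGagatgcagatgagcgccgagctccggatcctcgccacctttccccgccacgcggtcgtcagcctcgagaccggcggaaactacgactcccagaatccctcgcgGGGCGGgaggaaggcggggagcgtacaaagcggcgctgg

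The Zfp961 window, from the member with the largest difference, holds 2 CCAAT boxes and none of the other motifs. Zfp637 has 2 listed windows, of which the first is shown, and that window holds none of the 6 motifs. The Zfp263 window holds 3 GC boxes, 1 CCAAT box and 1 Ets motif, and the Zfp451 window 1 of each. Zfp263 gave a difference of 0.32 ± 0.13 and Zfp451 0.16 ± 0.11 (log2 ± SE), neither passing.

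Promoter windows were matched for 194 of the 242 members, 243 windows in all, and 21019 windows of other protein-coding genes had the same length. Those came from 17297 genes, whether measured here or not, unlike the comparison genes used above. The shares below therefore also set measured genes against genes that were not measured. The Ets motif occurred in 20.2% of Zfp windows, against 11.5% of other windows, and CCAAT in 45.3% against 38.1%. TATAAA occurred in 7.0% against 12.7%, and the GC box in 46.5% against 46.2%. The CRE occurred in 2.88% against 2.23% and the E-box in 7.0% against 7.85%. Zfp windows held a median of 16 CG pairs, against 13. The median difference was 0.09 in the 44 members with an Ets motif, against 0.06 in the 150 without one. With and without CCAAT it was 0.07 in both sets of 97, and with and without a GC box 0.07 in 98 and 96 members. It was -0.03 in the 16 members with TATAAA, against 0.08 in the 178 without it, -0.05 in the 7 with a CRE, against 0.07 in 187, and 0.06 in the 17 with an E-box, against 0.07 in 177. These are descriptions of letters in 1 window per listed start, and neighbouring members can share sequence.

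Many members neighbour each other on the chromosome in RefSeq's gene order (GRCm38.p6). Counting protein-coding genes, 88 members had another measured member as a direct neighbour, in 57 pairs, and 34 pairs had differences of the same sign. As 62.0% of all members were above 0, members that are not neighbours would also often share a sign. The pairs were not compared with such members. The 88 had a median of 0.05, with 59.1% above 0, and the 154 others a median of 0.07, with 63.6% above 0. Copies in such a run can be close in sequence, so a probe's assignment to 1 of them is uncertain.

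The longest run, from Zfp84 to Zfp382, held 13 measured members, 10 of them above 0, with a median of 0.08. It ranged from -0.21 for Zfp940 to 0.49 for Zfp568, which stood above its neighbours Zfp74, at 0.08, and Zfp14, at -0.18. In the run from Zfp180 to Zfp94 all 8 measured members were above 0, from 0.01 to 0.27, with a median of 0.12. The array medians of that run were 0.06, 0.19 and -0.02 in mutants 1 to 3, against -0.14, -0.16 and 0.18 in controls 1 to 3, so control 3 lay beside mutant 2. The run of 7 from Zfp677 to Zfp983 had a median of -0.04, with Zfp52 at -0.83. Zfp809, which silences murine leukaemia virus, gave -0.01 ± 0.13, beside its neighbour Zfp599 at 0.32. No member of these runs passed.

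**Figure D4:**
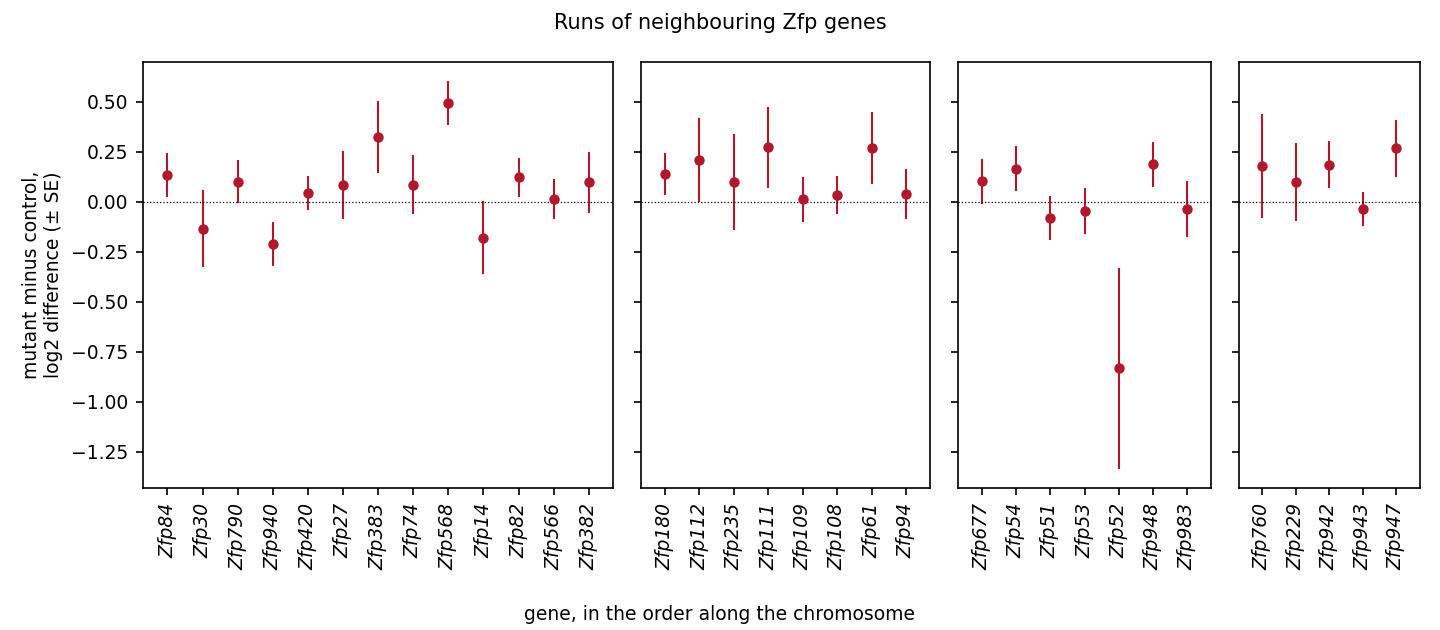
Mutant minus control log2 difference (points, with SE bars) for the 4 runs of neighbouring Zfp genes with 5 or more measured members, in the order along the chromosome. Zfp568 at 0.49 stands highest and Zfp52 at -0.83 lowest, and the bar of Zfp52 is the widest.

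Members listed for a known role, whatever their values, spread over both signs, and none passed. Of 20 such genes 15 were measured and 11 had a positive difference. Zfp260, Zfp42, Zfp57, Zfp143 and Zfp238 were not analysed here. Among DNA-binding regulators, Zfp217, an oncogene in human breast tumours, gave 0.55 ± 0.15 (SE, limma adjusted p = 0.317). Its signals were 9.97, 9.90 and 10.02 in the mutant hearts, against 9.21 and 9.62 in controls 1 and 3. Control 2 had no value for that probe and was left out of the fit. Zfp281, a pluripotency factor, gave 0.16 ± 0.19, and its dimmer probe 0.16. Zfp148, which binds GC-rich promoters, gave -0.07 ± 0.30, with signals of 9.11, 9.07 and 8.95 in the mutant hearts, against 8.49, 9.08 and 9.75 in the control hearts. The mutant arrays lay inside the range of the controls.

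The corepressors Zfp503 and Zfp703, of the NET family, gave -0.23 ± 0.38 and 0.08 ± 0.11 (log2 difference ± SE). In Zfp503 the mutant arrays read 9.55 and 9.46 but 8.21 in mutant 3, and without mutant 3 the difference was 0.21. Zfp292 gave 0.14 ± 0.19 and Zfp318, a factor of immunoglobulin transcript choice in B cells, 0.05 ± 0.10.

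Of members that act on RNA or outside transcription, Zfp36, or tristetraprolin, which binds AU-rich messages and speeds their decay, had signals of 9.05, 8.98 and 10.58 in the mutant hearts, against 9.47, 9.28 and 8.99 in the control hearts. Mutant 3 was the highest array. The difference was 0.29 ± 0.43 (SE), and -0.23 without mutant 3. Zfp638, a nuclear RNA- and DNA-binding protein, gave 0.21 ± 0.13. Zfp106, an RNA-binding protein that motor neurons and muscle need, gave 0.15 ± 0.16, and its dimmer probe -0.07. Zfp207, a spindle protein, gave 0.15 ± 0.10, with 0.42 for its dimmer probe.

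Some members varied widely among the arrays. A range over all arrays is never smaller than the difference of the group means, and it was not compared with that of other genes. The range over the 6 arrays had a median of 0.48 on the log2 scale and exceeded 1 in 18 members. The widest, chosen after their values were seen, were Zfp316 and Zfp553. Zfp316 had signals of 10.46, 9.27 and 10.02 in the mutant hearts, against 11.74, 11.36 and 8.85 in the control hearts, a difference of -0.73 ± 0.76 (SE). Zfp553 had 13.96, 12.29 and 13.47 in the mutant hearts, against 14.82, 14.74 and 12.20 in the control hearts, a difference of -0.68 ± 0.78. In both, controls 1 and 2 were highest and control 3 lowest, below every mutant.

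Zfp40 and Zfp52 were also highest in controls 1 and 2. Zfp40 had 8.19, 7.91 and 8.34 in the mutant hearts, against 10.05, 9.69 and 7.78 in the control hearts, and its difference of -1.03 ± 0.56 (SE) had an adjusted p of 0.577 with limma. Zfp52 had 8.80, 8.45 and 9.86 in the mutant hearts, against 10.34, 10.35 and 8.92 in the control hearts. The median of the erythroid markers had the same order of arrays as Zfp316 and Zfp553, with mutant 2 and control 3 nearly equal. Single markers did not all share it. Slc4a1 and Alas2 were highest in controls 1 and 2, but Hba-a1 and Ermap were highest in control 3. The median deviation of the erythroid markers was 0.03, -0.16 and -0.06 in mutants 1 to 3, against 0.23, 0.22 and -0.17 in controls 1 to 3. Of 13 listed markers 12 were measured, with a summed linear signal of 120197 to 128928 in mutant hearts and 127232 to 134447 in control hearts. Embryonic globins near the top of the scale made up most of this sum, with Hbb-bh1 at 15.225 in every mutant array and in control 1. Slc4a1, a dimmer marker, ranged over 2.55 on the log2 scale. The median deviation of the neural markers was also highest in controls 1 and 2. It was -0.09, -0.29 and -0.13 in mutants 1 to 3, against 0.25, 0.20 and -0.13 in controls 1 to 3. Single neural markers differed. Sox2, Ret and Ednrb were highest in controls 1 and 2, but Sox10 was highest in mutant 2, Tubb3 in mutant 1 and Elavl4 in control 3. The neural markers' summed signal was 991 to 1323 in mutant hearts, against 1947, 1782 and 1056 in controls 1 to 3. The liver markers' sum was 2040 to 2233 in mutant hearts, against 2944, 2900 and 1864 in controls 1 to 3, while their median deviation was not highest in those controls, at -0.13 and -0.03. The part of these markers in the 4 genes was not tested.

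**Figure D5:**
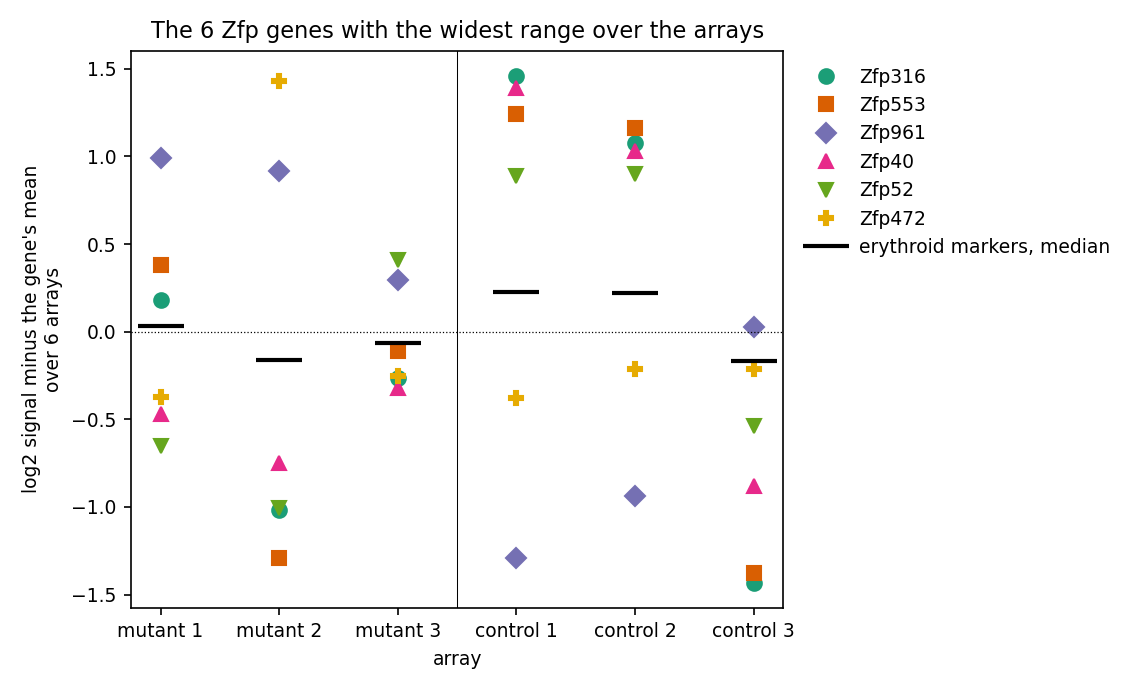
Log2 signal on each array minus the gene's mean over the 6 arrays for the 6 Zfp genes with the widest range, with the median of 12 erythroid markers as black dashes, mutant arrays left and control arrays right. Zfp316, Zfp553, Zfp40 and Zfp52 are highest in controls 1 and 2, Zfp961 is lowest there, and Zfp472 is high in mutant 2 alone.

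A second probe gave a check on the members' values. For 41 members 45 dimmer probes were tested, and 28 had the sign of the brightest probe. Where the brightest probe differed by more than 0.2, 4 of 9 dimmer probes had its sign. Across the 45 the 2 differences correlated at 0.228, a description over probes that share the 6 arrays. A member's difference was thus often not repeated by another probe of the gene.

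Corepressors that KRAB proteins work through were also centred above 0, and none passed. Of 30 listed genes 27 were measured, 20 had a positive difference, and the median was 0.11, against 0.01 for genes outside the Zfp set. At an unadjusted p under 0.05, 2 were higher, or 7.41%, near the 6.72% of genes outside the Zfp set. Trim28, the scaffold, had signals of 12.06 in mutant 1 and 11.40 in mutant 3, with mutant 2 between them, against 11.72, 11.74 and 12.10 in the control hearts, a difference of -0.03 ± 0.21 (SE). Rcor1, which encodes the CoREST scaffold, gave 0.53 ± 0.14, the deacetylase gene Hdac1 0.28 ± 0.11, the heterochromatin protein gene Cbx5 -0.22 ± 0.10 and the DNA methyltransferase gene Dnmt3a 0.41 ± 0.22. By array the median deviation of the corepressors was 0.17, 0.10 and -0.16 in mutants 1 to 3, against -0.13, -0.08 and 0.08 in controls 1 to 3. As for the Zfp genes, mutants 1 and 2 and control 3 were above 0. Setdb1 was not analysed here.

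Other zinc finger families gave medians on either side of that of the Zfp genes, and none of their members passed. The 28 Zbtb genes had a median of 0.08, with 60.7% above 0, and the 17 Zscan and Zkscan genes 0.12, with 70.6% above 0. The 22 Klf and Sp genes had a median of 0.03, the 12 Zc3h genes 0.04, the 20 Zdhhc genes 0.00 and the 3 Zfand genes -0.12. Rnf genes, 58 in number, had a median of 0.03 and the 38 Trim genes 0.04. No difference between these lists was tested.

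Of the markers of other cell types, the summed signal of those of endothelium separated the groups, by a narrow margin. For 9 of 11 endothelial markers the summed linear signal was 7863 to 8973 in mutant hearts and 9076 to 9619 in control hearts. Of these 9 markers 8 had a negative difference, with a median of -0.21. The sums given above for 6 of 7 neural and 5 of 7 liver markers overlapped between the groups. Leukocyte and platelet markers, 4 of 7, summed to 2548 to 3214 in mutant hearts and 2308 to 2830 in control hearts. Their part in the differences of the Zfp genes was not tested.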

How the data were processed

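Single-colour CodeLink arrays with biotin-labelled RNA, 3 of mutant and 3 of control hearts, were analysed from the deposited scanner files. Per the file headers, the authors gave each spot its mean intensity and local background, the intensity after subtraction and after normalization, and a flag for quality. In the values the normalized intensity was the subtracted one divided by a constant per array, and the series' value table held it for spots flagged good, as linear intensity, with column medians of 1.83 to 2.06. No source used here names the scanner. Between 76 and 90 spots per array had no value and were left missing. Between 184 and 263 spots per array were flagged saturated and were kept.

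Spot means were background-corrected by normexp (offset 50) over all spots with limma 3.58.1 in R 4.3.3, log2-transformed and then quantile-normalized over the 21880 spots listed with a gene. The offset pulls differences of dim probes towards 0. A probe was tested when above background on at least 3 of 6 arrays. Mutant and control arrays were tested by lmFit and eBayes (two-sided), with Benjamini-Hochberg adjustment over all probes tested and no block. The code was tested on simulated data.

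Members and lists were chosen with earlier results of these data known. Named were 20 genes of known role, up to 8 genes per direction by smallest p among those not overlapping, and Trim28, Setdb1 and 4 more corepressors. No set test was run, and the planned count of fingers and KRAB domains was not run, as it needs protein sequences, which were not used here. The member symbols all matched RefSeq (GRCm38.p6) through the gene number. Alternatives were other background corrections, normalizations, filters, probe choices, blocks and left-out arrays. The number of arrays limits the precision.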

Additional observations from a re-analysis of the deposited data

How the results depend on the processing

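The members' median, their excess over other genes and their share above 0 kept their direction in all 19 alternatives. With arrays left out one at a time the median ran from 0.04 to 0.09, the excess from 0.03 to 0.07 and the share from 58.7% to 65.3%, and otherwise the median from 0.04 to 0.11, the excess from 0.05 to 0.08 and the share from 57.7% to 68.2%. The median of other genes moved to -0.0185 with cyclic loess, 0.0339 with the slide as a block and 0.0283 without mutant 3 and control 3, and ran from -0.000419 to 0.0270 with arrays left out. The fit with the slide as a block rests on 2 mutant arrays and control 1 alone, with 1 residual degree of freedom, so its counts are no test of the groups. Passing members numbered 16 in that fit, 52 without mutant 3 and control 3, 0 to 3 with arrays left out (3 without control 3) and 0 elsewhere. At an unadjusted p under 0.05 there were 64 members with the slide as a block, or 26.4% against 29.1% of other genes, and 95 without mutant 3 and control 3, or 39.3% against 36.6%. With arrays left out there were 8 to 48, or 3.31% to 19.8% against 4.91% to 21.8%. Groups did not overlap in 150 members without mutant 3 and control 3, or 62.0% against 64.2% of other genes. With arrays left out they did not overlap in 36 to 87, or 14.9% to 36.0% against 17.9% to 40.2%, where fewer samples make overlap rarer.

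Over all probes 9 passed. The count was 5 with the subtracted intensity, 5 with the authors' normalized intensity, 5 with the mean of all tested probes, 1339 with the slide as a block, 3921 without mutant 3 and control 3 and 0 to 320 with arrays left out. The title number as a replicate block gave 0 passing probes and 15 members at an unadjusted p under 0.05, or 6.20% against 7.67% of other genes. Same-numbered arrays correlated at 0.02, -0.49 and -0.38 in their deviations from the group means. Deviations within groups of 3 are bound to one another, so these values cannot show whether the numbers pair the arrays. The cause of these changes was not tested. Of 530 values of the 28 named members, 500 kept direction and call, 13 gained a call and 17 changed sign without one.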
